A study of Mus musculus with 2 samples.

Results

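Membrane transporters and ion channels move ions, nutrients and metabolites across membranes. In E14 mouse embryonic stem cells, 60 of their genes were named for a macroH2A1 peak, as the gene with the nearest start. Of the 69 peaks, 24 lay inside the gene (34.8%), against 20.7% of other peaks with a single symbol. Member genes were longer (median 61.1 against 29.4 kb), and the difference in share was not tested. Among protein-coding genes the share with a peak under a single symbol was 59 of 696 (8.48%), against 5.76% of all. The genes were chosen from the deposited peak list by symbol: a row counted when its entry was a single symbol beginning with Slc, Abc, Atp, Kcn, Cacn, Scn or Clcn, or with Trpc, Trpm or Trpv and a digit. Kcnk9 and Cacna1i were left out by this rule. It gave 69 of the 2560 peaks in the list. E14 is an established mouse embryonic stem cell line, here grown on gelatine with serum and leukemia inhibitory factor, and not treated further. The study made 1 ChIP-seq library with an antibody raised against part of macroH2A1 and 1 with non-specific IgG (ab4654), both from E14 cells. The list belongs to the macroH2A1 library. With no replicate library and no read count or score per peak, the values below describe this 1 list, the depth behind each peak is unknown, and intervals cover counting error only. RNA was not measured in these libraries, so whether the cells express these genes, or markers of stem cells, was not analysed here.

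MacroH2A1 is a variant of histone H2A with a large globular domain attached to its histone part, found widely in silent chromatin and known for the inactive X chromosome and for repressed developmental genes. Solute carriers (Slc genes) move substrates by facilitated or coupled transport. ATP-binding cassette proteins (Abc) and the Atp pumps spend ATP to do so. Potassium (Kcn), calcium (Cacn), sodium (Scn) and transient receptor potential (Trp) channels, and some proteins of the chloride channel (Clcn) family, let ions pass down their gradients. Many are typical of neurons, muscle or epithelia such as the kidney tubule.

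The members closest to a gene start are shown first, because the sequence before that start is what such a peak approaches. Of the 10 genes with a peak within 5 kb of their start, 6 had an entry in the RefSeq promoter table, and 4 of those had gene models of similar length in the list and in RefSeq (within 500 bp). The 250 bases before the start of these 4 follow, 5′ to 3′ on the gene's strand, from RefSeq on build GRCm38.p6, with each CG dinucleotide in capitals. They are chr6:83742767-83743016 (plus strand) for Atp6v1b1, chr6:142571615-142571864 (minus strand) for Kcnj8, chr11:120948817-120949066 (plus strand) for Slc16a3 and chr15:100761497-100761746 (plus strand) for Slc4a8. The peaks are on mm9, an earlier build, so these positions cannot be set beside theirs.
Atp6v1b1: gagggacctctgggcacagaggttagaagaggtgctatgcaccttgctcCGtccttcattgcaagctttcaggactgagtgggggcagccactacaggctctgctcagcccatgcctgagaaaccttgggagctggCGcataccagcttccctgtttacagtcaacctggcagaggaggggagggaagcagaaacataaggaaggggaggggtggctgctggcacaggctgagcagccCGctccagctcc
Kcnj8: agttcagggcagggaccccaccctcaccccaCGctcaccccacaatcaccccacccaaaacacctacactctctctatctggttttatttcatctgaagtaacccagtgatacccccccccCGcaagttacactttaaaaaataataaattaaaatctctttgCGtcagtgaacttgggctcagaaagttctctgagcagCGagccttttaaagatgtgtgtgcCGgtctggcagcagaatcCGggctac
Slc16a3: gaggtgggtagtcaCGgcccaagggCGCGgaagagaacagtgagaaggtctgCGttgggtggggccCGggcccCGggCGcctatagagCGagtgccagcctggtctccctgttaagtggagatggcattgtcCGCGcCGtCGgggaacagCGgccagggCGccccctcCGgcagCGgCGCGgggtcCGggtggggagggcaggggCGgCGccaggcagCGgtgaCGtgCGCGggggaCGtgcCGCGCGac
Slc4a8: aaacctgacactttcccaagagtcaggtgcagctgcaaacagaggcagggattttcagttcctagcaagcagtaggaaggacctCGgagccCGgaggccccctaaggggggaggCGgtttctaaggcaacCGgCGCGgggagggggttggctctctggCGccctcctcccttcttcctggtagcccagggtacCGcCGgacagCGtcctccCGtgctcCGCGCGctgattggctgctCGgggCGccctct

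The promoters ranged from poor to rich in CG. Atp6v1b1 had 3 CG dinucleotides in its 250 bases, and 71.0% of the 32851 windows in the promoter table had as many or more. Kcnj8 had 6, Slc4a8 had 16 and Slc16a3 had 29, a number that 6.78% of all windows reached. Over the 63 windows of 47 member genes in the table the median was 7, against 6 over all windows and 11 over the 1068 windows of other genes listed with a peak under a single symbol. A GC box (GGGCGG, either strand) was found in Slc16a3 alone of the 4 and in 32.7% of all windows. CCAAT (either strand) was found in Slc4a8 alone of the 4 and in 33.8% of all windows. TATAAA (either strand) was in none of the 4 and in 12.4% of all. None of the listed peaks covered these bases by the gene models of the list. The peak of Atp6v1b1, which came closest, ended 261 bp before the start, and the gene's length in the list and in RefSeq differed by 46 bp.

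A peak was listed for 59 of the 696 protein-coding genes that the rule's symbols cover in the RefSeq gene table (8.48%, exact 95% interval 6.52 to 10.8%). Over all 21631 protein-coding genes the share with a peak under a single symbol was 5.76%. The remaining member, Slco6b1, is not a protein-coding gene in that table. The interval over family genes lay above the share of all genes, but no test was made. Rows without a symbol (891) or with several symbols (111) could add to neither share. Whether such rows lower the share of all genes more than that of family genes was not tested. The share of all genes also takes in older symbols, which the 59 family genes leave out (62 of 696 with them). Member genes were longer than other genes with a peak (median 61.1 against 29.4 kb), and the part of gene length in the share of family genes was not tested.

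Channel genes as a group had a higher share than carriers and pumps, with intervals that overlapped. Peaks were listed for 21 of 168 channel genes (12.5%, 7.91 to 18.5%) and for 38 of 528 carrier and pump genes (7.20%, 5.14 to 9.74%). The totals follow symbol prefixes, so not every gene counted as a channel encodes one, nor every gene counted as a carrier or pump. They include 1 Scnm gene, 4 Abce and Abcf genes and 5 other Atp genes, none with a peak under its family symbol. Among channels these were 11 of 93 Kcn genes, 4 of 25 Cacn genes, 4 of 18 Scn genes, 1 of 9 Clcn genes and 1 of 23 Trpc, Trpm and Trpv genes. Solute carriers had 28 of 389 (7.20%, 4.84 to 10.2%), Atp genes 8 of 89 and Abc genes 2 of 50. The intervals of the smaller families were wide: that of Scn genes ran from 6.41 to 47.6%, and that of Trp genes from 0.11 to 21.9%. A separate list of ligand-gated and other channels outside the rule (glutamate, GABA, acetylcholine and ryanodine receptors, connexins, aquaporins and others) had 15 of 163 (9.20%, 5.24 to 14.7%).

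**Figure D1:**
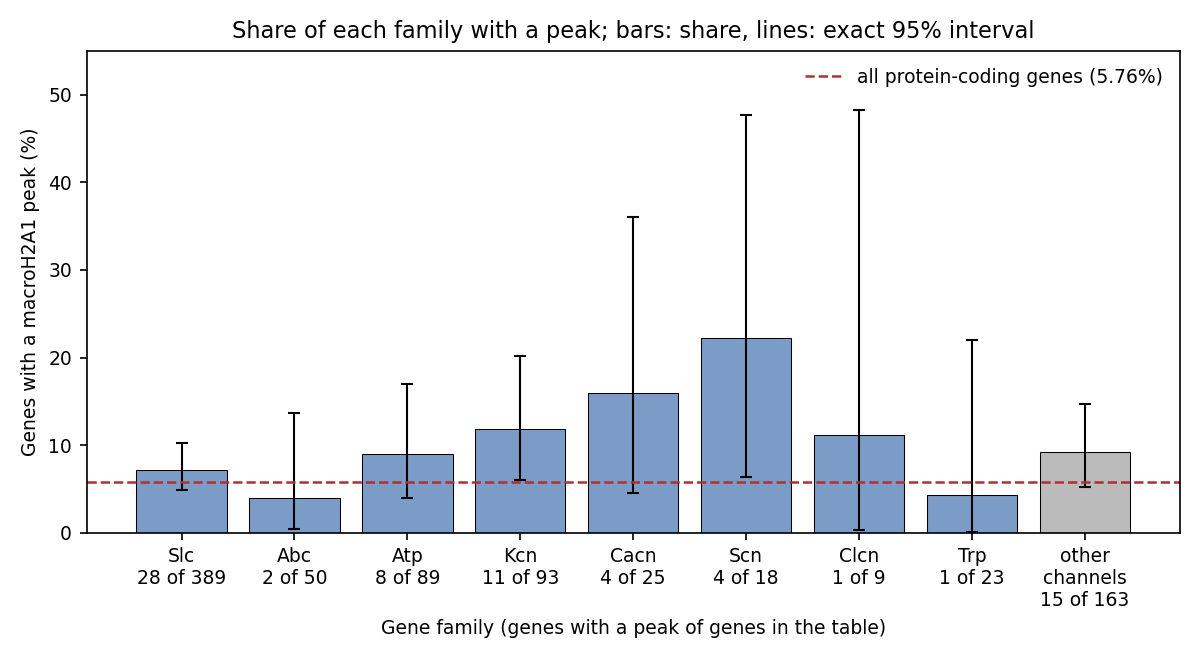
Share of genes with a macroH2A1 peak (vertical axis, percent) in each family of transporters and channels and, in grey, in other ion channels; lines are exact 95% intervals for counting error, and the dashed line is the share over all protein-coding genes (5.76%). Only the intervals of Kcn (6.05 to 20.2%) and Scn genes start above that line.

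Within the families, genes with a peak were counted for each branch, beside a share of 5.76% over all protein-coding genes. P-type pumps had 6 of 41 genes with a peak and V-type proton pump subunits 2 of 26, while none of 17 F-type (Atp5) genes, which encode the mitochondrial ATP synthase, had one (exact 95% interval up to 19.5%). Of potassium channels, 3 of 40 voltage-gated, 3 of 15 inward rectifier, 3 of 13 two-pore and 2 of 8 calcium- or sodium-activated genes had a peak, and none of 17 genes of auxiliary subunits. Pore-forming Cacna1 genes had 2 of 9, and the beta subunit genes none of 4. Among Trp channels the 1 gene was of the Trpv branch (1 of 6), with none of 9 Trpc and none of 8 Trpm genes. These counts are too small to tell one branch from another. The exact 95% intervals of the branches without a peak all took in 5.76%, so a count of none does not set a branch apart.

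The list places each peak upstream of, inside or downstream of its gene. Of the 69 peaks, 34 were upstream (49.3%, 37.0 to 61.6%), 24 inside (34.8%, 23.7 to 47.2%), 10 downstream (14.5%, 7.17 to 25.04%) and 1 over a gene end. Of the 1486 other peaks with a single symbol, 20.7% were inside their gene (308 peaks), 52.6% upstream and 25.3% downstream. Because genes of the 2 sets differed in length (60 member and 1249 other genes), the share was also taken on each side of 61.1 kb, the median member length. Above it, the share inside was 16 of 36 peaks at member genes (44.4%, 27.9 to 61.9%) and 175 of 508 at other genes (34.4%, 30.3 to 38.8%). At shorter genes it was 8 of 33 (24.2%, 11.1 to 42.3%) and 133 of 978 (13.6%, 11.5 to 15.9%). The intervals overlapped in both length classes, and the difference was not tested.

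**Figure D2:**
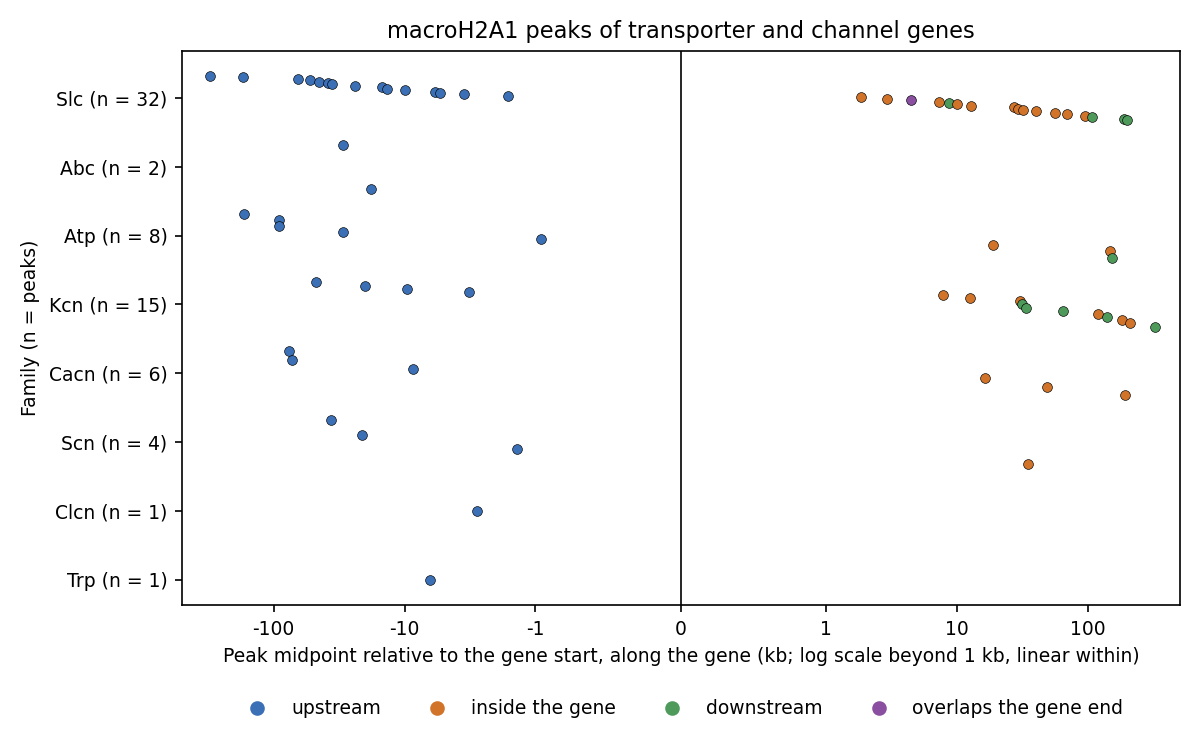
Midpoint of each of the 69 peaks relative to the start of its gene (horizontal axis, kb, negative before the start, logarithmic beyond 1 kb), by family, with colour for the class of the peak. The closest midpoint, that of Atp6v1b1, is at -0.961 kb, and 34 midpoints lie before and 35 after it.

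Most member peaks were far from the gene start. The distance, taken as the gap between the start and the closest edge of the peak, had a median of 30.3 kb (interquartile range 9.26 to 76.1 kb), against 26.8 kb (9.46 to 78.2 kb) for other peaks with a single symbol. It ranged from 261 bp to 323 kb. Within 5 kb of a start lay 10 of the 69 peaks (14.5%, 7.17 to 25.04%), against a background of 16.7%, and within 1 kb lay 4 (5.80%, 1.60 to 14.2%), against 59 of the 1486 other peaks (3.97%). Both background shares lay within the intervals of the members. No start was covered (0 of 69; a count of 0 still permits 4.35%), and among other peaks 12 of 1486 were over a start (0.81%), so this count does not set the members apart. The peak of Cacna1i, which the rule leaves out, lies over its start, so the count also follows in part from the rule.

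The peaks within 1 kb included those of an epithelial proton pump, a mitochondrial carrier and a sugar carrier. Atp6v1b1 encodes a subunit of the V-type proton pump typical of kidney and inner ear, and its peak lay upstream on chromosome 6 at 83691350 to 83692750 (1401 bp wide). Slc25a30, a gene of a mitochondrial carrier, had an upstream peak on chromosome 14 at 76187350 to 76189600, 2251 bp wide and 509 bp from the start. Slc45a1, a gene of a proton-coupled sugar carrier, had a peak of 2001 bp inside the gene on chromosome 4 at 150023450 to 150025450, beginning 822 bp after the start. Of these 3 peaks 2 were thus upstream and 1 inside, and those of Slc25a30 and Slc45a1 were wider than the median member peak.

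Further peaks within 5 kb lay at carrier and potassium channel genes. Slc7a13, a gene of an amino acid carrier, had a peak inside the gene on chromosome 4 (19748150 to 19749400), 2.26 kb past its start. Kcnj8, which encodes the pore of an ATP-sensitive potassium channel of vascular muscle, had an upstream peak on chromosome 6 (142522450 to 142523700) at 2.57 kb. Slc16a3, the lactate exporter MCT4 of glycolytic cells, had one on chromosome 11 (120805650 to 120806900) at 2.89 kb. The peak of Slc35d3, a short gene of 3.54 kb in the nucleotide sugar carrier family, overlapped the gene end on chromosome 10 (19565800 to 19567850). Slc4a8, a sodium-driven bicarbonate exchanger, had an upstream peak on chromosome 15 (100585800 to 100587800) at 4.38 kb. Of the 10 genes with a peak within 5 kb, 6 were solute carriers, which were also 29 of all 60 member genes. These counts are too small to set solute carriers apart.

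Among solute carriers, 29 genes had 32 peaks, 15 of them upstream, 12 inside, 4 downstream and 1 over a gene end. Amino acid carriers were Slc1a2, the glial glutamate carrier, with a peak 31.2 kb inside, Slc7a1, a carrier of cationic amino acids, with one 51.7 kb upstream, Slc7a11, the cystine-glutamate exchanger, and Slc7a13. The peak of Slc7a11 was among the farthest of all, 304 kb upstream on chromosome 3 (50552000 to 50553350). Carriers of organic anions and cations were Slc22a6, the renal anion carrier OAT1, with a peak 6.68 kb inside on chromosome 19 (8699350 to 8700450), Slc22a16, a carnitine carrier, with one 44.3 kb upstream, Slco1b2, Slco1c1, and Slco6b1, with one 54.9 kb inside. None of the 6 peaks of these 5 genes lay within 5 kb of a start, against 16.7% of other peaks with a single symbol. With 6 peaks, this does not set these genes apart.

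Of the carriers of carboxylates and sulphate, Slc13a3, a dicarboxylate carrier of the kidney, had a peak 28.2 kb inside, and Slc13a1, a renal sulphate carrier, had one 171 kb upstream. Carriers of bicarbonate and protons had 4 peaks at 4 genes, 2 upstream (Slc4a8 and, at 23.0 kb, Slc9a8) and 2 inside (Slc4a5 at 26.5 kb and Slc9a9 at 67.9 kb). Slc25a13, the mitochondrial aspartate-glutamate carrier, had a peak 64.2 kb upstream. Metal carriers were Slc39a10, a zinc importer with 2 peaks, and Slc41a2, a magnesium carrier with a peak 9.26 kb inside on chromosome 10 (82789800 to 82791300). The choline carrier family had Slc44a3, with a peak 9.29 kb upstream, and Slc44a5, with one 92.7 kb inside. Slc27a3, of the fatty acid carrier family, had a downstream peak 8.10 kb from its start. Slc35f5 and Slc37a2 had upstream peaks at 13.1 and 35.2 kb.

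The 8 Atp genes had 1 peak each, at a median of 90.0 kb, the longest of the families with over 2 peaks. Atp1b1, which encodes a beta subunit of the sodium-potassium pump, had a peak 90.3 kb upstream. The plasma membrane calcium pump genes differed in class: the peak of Atp2b1 was 167 kb upstream and that of Atp2b2 147 kb inside its gene. Atp2c2, a secretory pathway calcium pump, had the widest member peak, 2651 bp on chromosome 8 (122241350 to 122244000), 17.3 kb inside. Atp10a, a phospholipid flippase gene, had a peak 28.8 kb upstream, and Atp6v1h, a V-type pump subunit, one 152 kb from its start and downstream of the gene. Both Abc genes, Abca5 and Abcc3 (the export pump MRP3), had an upstream peak, at 28.8 and 17.1 kb.

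Potassium channels had 15 peaks at 11 genes, of which 6 were inside, 5 downstream and 4 upstream. Kcn genes thus held 5 of the 10 downstream peaks among members, and 15 of all 69 member peaks. Of other peaks with a single symbol 25.3% were downstream, and the difference from 5 of 15 was not tested. Inward rectifiers were Kcnj8 (above), Kcnj16, a kidney and glial channel, with a peak 11.8 kb inside on chromosome 11 (110841150 to 110842600), and Kcnj4, with a downstream peak 30.3 kb from the start. Voltage-gated members were Kcnh4, with a peak 7.21 kb inside on chromosome 11 (100612850 to 100614050), Kcnc2, a channel of fast-spiking neurons, and Kcnv1, a modifying subunit, with a downstream peak 63.0 kb from the start. Two-pore leak channels were Kcnk1, Kcnk10 and Kcnk16, with 5 peaks in all. Those of Kcnk16 and Kcnk1 were downstream, at 32.8 and 137 kb from the starts. Kcnt2, a sodium-activated channel, had 2 peaks inside, and Kcnu1, the sperm potassium channel, had 1, 29.0 kb past its start.

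Of the calcium channel genes, Cacna1a, the P/Q-type channel of synapses, had a peak 7.76 kb upstream. Cacna1s, the voltage sensor of skeletal muscle, had one 15.3 kb inside on chromosome 1 (137964700 to 137966300). The auxiliary subunit genes Cacng3 and Cacna2d3 had 1 (47.3 kb inside) and 3 peaks. Sodium channels included Scn8a of neurons, with a peak 20.4 kb upstream, Scn11a of pain-sensing neurons, with one 33.9 kb inside, and Scnn1b, a subunit of the epithelial channel, with one 35.5 kb upstream. Trpv2 had a peak 5.78 kb upstream. None of the 6 peaks of these 4 Cacn genes lay within 5 kb of a start, with Cacna1i left out. Among other peaks with a single symbol 16.7% did, and 6 peaks are too few to set these genes apart.

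Several peaks were listed for 7 of the 60 genes (11.7%), against 14.4% of other genes with a single symbol, a share no higher than the background. Cacna2d3 and Kcnk10 had 3 each, and both had a pair of close upstream peaks and 1 peak inside. Those of Cacna2d3, an alpha-2-delta subunit gene 817 kb long, lay on chromosome 14 at 30606550 to 30607650 and 30611150 to 30612500, 71.5 and 76.1 kb upstream and 3.50 kb apart, and at 30342800 to 30344050, 191 kb inside. Those of Kcnk10, the leak channel TREK-2, lay on chromosome 12 at 99825050 to 99826350 and 99835700 to 99836950, 8.90 and 19.6 kb upstream and 9.35 kb apart, and at 99695750 to 99697050, inside the gene and 119 kb from its start. All 6 peaks of these 2 genes were narrower than the median member peak, at 1101 to 1351 bp.

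The other 5 genes had 2 peaks each in differing layouts. Kcnt2 had both inside, on chromosome 1 at 142324000 to 142325950 and 142351100 to 142352450, 25.2 kb apart, the second 208 kb from the start. Slc39a10 had both downstream, 8.05 kb apart on chromosome 1 (46711500 to 46712900 and 46720950 to 46722350), at 197 and 188 kb from its start. Both regions lie within the span that the list gives for Dnahc7b, a dynein heavy chain gene, whose own start was not the nearest. Slc28a3, a concentrative nucleoside carrier, had 1 inside and 1 upstream on chromosome 13 (58671450 to 58673600, 2151 bp wide, and 58726150 to 58727900). Kcnc2 had a wide upstream peak on chromosome 10 (111659400 to 111661650, 2251 bp) and a narrow downstream one (112031250 to 112032300, 1051 bp). The latter, at 323 kb, was the farthest member peak. Slco1b2, a liver anion carrier, had 1 upstream and 1 downstream on chromosome 6 (141538750 to 141540100 and 141683800 to 141685400).

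**Figure D3:**
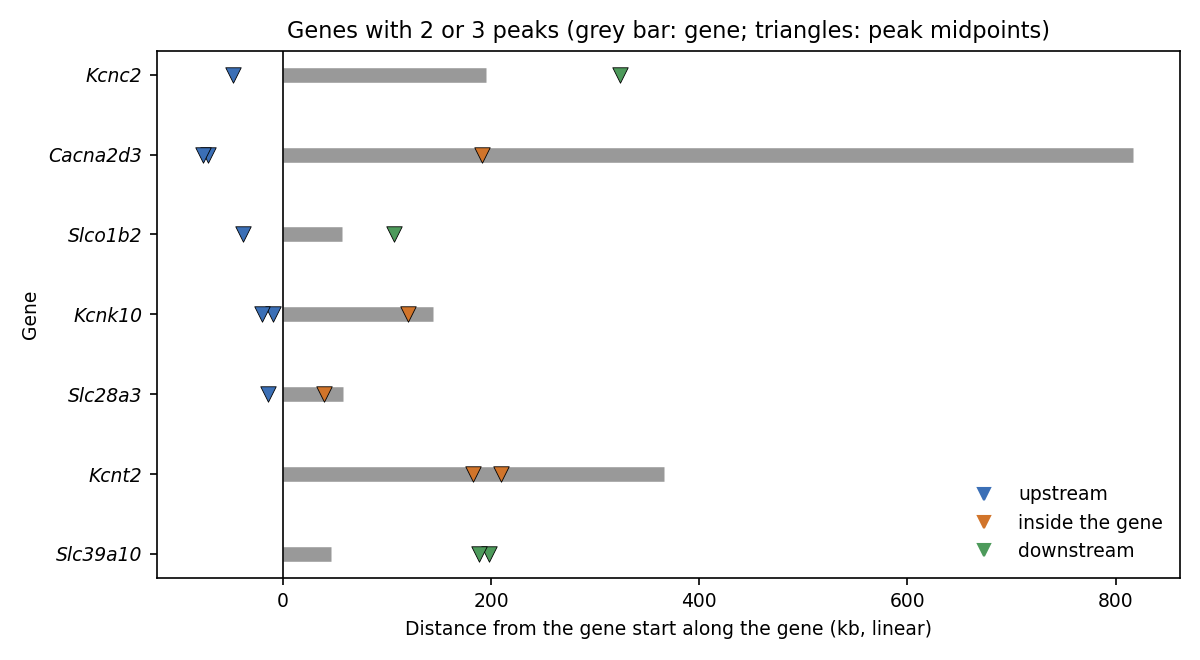
Positions of the 16 peaks at the 7 genes with 2 or 3 peaks, as distance from the gene start along the gene (horizontal axis, kb), with the gene as a grey bar. Cacna2d3 and Kcnk10 each have 2 close peaks before the start and 1 inside, and Slc39a10 has both beyond its end.

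Some members were neighbours. The peak of Slco1c1, the thyroid hormone and anion carrier of the blood-brain barrier, lay 11.9 kb inside that gene on chromosome 6 (141484850 to 141486200), and the upstream peak of Slco1b2 was 52.6 kb further on with no other listed peak between. Slc4a8 and Scn8a on chromosome 15 had upstream peaks 91.4 kb apart, also with none between. A further peak on chromosome 9 (119668500 to 119669800), which the list assigns to a gene without a symbol, lies within the span of Scn11a, 63.2 kb from its start. Over all members the nearest other peak of any gene was at a median of 247 kb, against 213 kb for other peaks with a single symbol, and 9 of 69 (13.04%) had one within 50 kb, against 21.9%.

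Peaks inside genes lay mostly in the front part. Of the 24, 19 had their midpoint before the middle of the gene (79.2%), against 68.2% of 308 other inside peaks. The median position was 33.5% of the way along the gene, against 34.5% for the others. The foremost was that of Slc45a1 at 8.00% and the rearmost the inside peak of Kcnk10 at 83.2%. By the way the list assigns peaks, an inside peak is nearer to its own gene's start than to any other. The part of this assignment in the positions was not tested. Whether these regions are exonic or intronic was not analysed here.

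Member peaks had a median width of 1601 bp (interquartile range 1351 to 1851 bp; 95% interval of the median 1401 to 1701 bp), against 1551 bp (1301 to 1851 bp) for other peaks with a single symbol. Widths ran from 1051 to 2651 bp, and 13 peaks (18.8%) were over 2000 bp, against 15.7%. Those of Kcnc2, Slc25a30 and Slc28a3, given above, were also among the 5 widest. Family medians were 1476 bp for Slc, 1751 bp for Atp, 1451 bp for Kcn and 1476 bp for Cacn genes. By class, the medians were 1601 bp upstream, 1476 bp inside and 1626 bp downstream. All these medians lay within the interquartile range of other peaks.

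**Figure D4:**
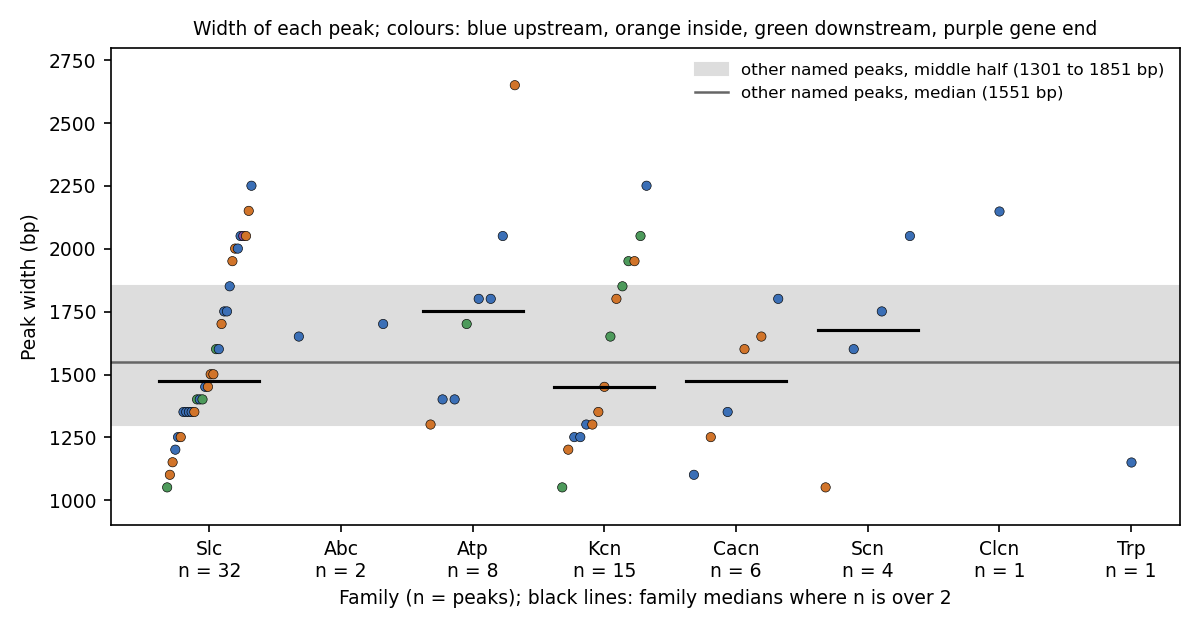
Width of each member peak in bp (vertical axis, which does not begin at 0) by family, with family medians as black lines and the median and interquartile range of the 1486 other named peaks in grey. Atp2c2 stands highest at 2651 bp, and the family medians drawn lie between 1451 and 1751 bp.

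The member peaks lay on 17 of the 20 chromosomes in the list, and none was on chromosomes 16, 17 or 18. Those 3 held 3.05%, 3.36% and 3.16% of all listed peaks and 23, 34 and 18 of the 696 family genes. Chromosomes 1 and 6 had 9 each (13.04%, 6.14 to 23.3%), at 7 and 8 genes, while they held 6.76% and 4.38% of all listed peaks. The interval takes peaks as independent, though some genes there had several. Chromosome 5, which held the most peaks of the list (9.77%), had 1 member peak, that of Slc7a1 (1.45%, 0.04 to 7.81%). Of the 696 family genes in the gene table, 38 (5.46%) are on chromosome 5, 40 on chromosome 1 and 43 on chromosome 6. These differences were not tested.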

How the data were processed

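The deposited file is a peak list in the column layout of ChIPpeakAnno. Peak names begin with CCAT, a peak caller, per the file headers and values. Bowtie and the mouse build NCBIM37 (mm9) are named in the submitters' processing notes. For the caller's settings, its control and any filter the sources used here give nothing. Each peak is assigned to the gene with the nearest start, per the deposited file, so the list can name a neighbour for a peak in a long gene, and a gene with wide gaps around it can collect more peaks. Peak width and distance are in bp, and all coordinates are multiples of 50.

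Rows without a symbol (891), with several symbols (111) or with a date for a symbol (1) could not be members. Distances were recomputed as the gap between gene start and closest peak edge, 0 where covered. Gene lengths in the results are those of the list's own gene models. The RefSeq gene table (GRCm38.p6) gave the genes of each family, and its lengths were used to compare gene models. Symbols had to lie on one chromosome in both sources: 59 of 60 genes matched a protein-coding gene. Intervals are exact (Clopper-Pearson, 95%), those of medians from order statistics, computed with Python 3.11.15, pandas 2.3.3 and scipy 1.17.1, and the functions were tested on simulated data. No test between groups was possible with 1 library each, and none was made. Genes given in full had 2 or more peaks, a peak within 5 kb of the start, or were among the 5 widest, the 5 farthest or the 10 closest inside. Members, families and lists were chosen with earlier results of these data known. Some genes of these families are not reported here by name. No values of the IgG library were analysed here.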

Additional observations from a re-analysis of the deposited data

How the results depend on the processing

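Of 55 values under alternative settings, 49 stayed within the 95% interval of the reported value or, for counts, within 1.5 times of it. All 69 member regions were distinct, so counting identical regions once could change nothing. Leaving out chromosome 5 still left 68 peaks, and including rows with several symbols gave 71, so these settings could hardly move a value. The 49 therefore overstate how far the results were tried. Counting only peaks wider than the list's median, 34 genes had a peak instead of 59, and 1 gene had several peaks instead of 7, as fewer peaks enter. Without solute carriers these counts were 31 and 4. The share near the start was 5.80% within 1 kb and 27.5% within 10 kb, against 14.5% within 5 kb. Chosen after seeing the data were the split by gene length (44.4% and 24.2% inside, both within the interval of 34.8%) and the count with older symbols (62 genes). Leaving out a replicate was not possible with 1 library. No paired analysis was possible because the result comes from no test.

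Depth and enrichment per peak are unknown, and precision beyond counting error cannot be given.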

Other observations

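Rows that the rule does not take still concern transporters. Slc6a5, the neuronal glycine carrier, was listed with a second symbol and had a peak 6.11 kb inside its gene on chromosome 7 (57172250 to 57173850, 1601 bp). A row naming both Hiat1 and Slc35a3 had a peak 22.7 kb upstream on chromosome 3 (116437850 to 116439650). With both rows included, 61 family genes had a peak.

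Further genes stood under older symbols. Tmem20 and Tmem22 are Slc35g1 and Slc35g2 in the RefSeq table. The peak of Tmem20 was downstream on chromosome 19 (38531050 to 38533100), 60.6 kb from its start, and that of Tmem22 was 17.6 kb upstream on chromosome 9 (100471650 to 100473250). Xrcc6bp1, now Atp23, had 3 peaks on chromosome 10, at 19.0, 122 and 175 kb, but Atp23 is a mitochondrial peptidase and no pump. With these 3 genes the count was 62 of 696 (8.91%), which is counted in the same way as the share of all protein-coding genes.

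Among the channels outside the rule, 15 genes had 16 peaks. Ryr1, the calcium release channel of skeletal muscle, had the closest, 1.63 kb from its start. The acetylcholine receptor genes Chrng and Chrne followed at 2.11 and 3.80 kb, and the connexin gene Gja4 at 3.93 kb. GABA receptor genes included Gabrb2, Gabrd and Gabrr1, and glutamate receptor genes included Grik1 and Grik2 (2 peaks). Others were Aqp3, Clic5, Cnga3 and Trpa1. Of the 16 peaks, 4 lay within 5 kb of a start, 4 inside their gene, 8 upstream and 4 downstream.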
